A study of Mus musculus with 15 samples.

Results

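The AKT, mTOR and FOXO nodes described here are 10 mRNA, picked by gene symbol with earlier results of these data known. They are the kinases Akt1, Akt2 and Mtor, the mTOR complex subunits Rptor and Rictor, the inhibitor Tsc1, the transcription factors Foxo1 and Foxo3, and the sestrins Sesn1 and Sesn3. All 10 were found among the 11262 mRNA of the CD8+ T cell table and among the 11211 mRNA of the cytotoxic T lymphocyte (CTL) table. Both tables share 10637 mRNA.

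PI3K p110δ is the lipid kinase that T cells use downstream of the antigen receptor and of IL-2. Its product brings AKT to the membrane, where PDPK1 and the Rictor-containing complex mTORC2 phosphorylate it. Active AKT drives FOXO factors out of the nucleus. In the general scheme it also inactivates the TSC complex, which frees RHEB to switch on the Raptor-containing complex mTORC1. For CD8+ T cells, the paper that reported these data cites earlier work in which mTORC1 activity did not depend on p110δ. Sestrins restrain mTORC1 through the GATOR complexes, and sestrin genes are known FOXO targets. In naïve T cells nuclear FOXO1 keeps genes of homing and survival on. These steps are changes of protein phosphorylation and location, and the values below are mRNA levels.

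The cells were P14 CD8+ T cells, which carry a transgenic T cell receptor (TCR) for the lymphocytic choriomeningitis virus peptide gp33–41. For the naïve and 24 h activated cells the methods give female mice of 9 to 13 weeks. The methods do not give sex or age for the CTL held with or without IL-2. There were 5 groups of 3 replicates. Naïve cells were sorted straight from the mouse as live TCRβ+ CD8+ cells of naïve surface phenotype, low in CD44 among other markers. TCR cells had 24 h of culture with the DMSO vehicle, IL-2 at 20 ng/ml, IL-12 at 2 ng/ml and the peptide at 100 ng/ml, and TCR + PI3Kdi cells had the same with 10 µM of the p110δ inhibitor IC87114 (PI3Kdi). Both were sorted as live CD8+ cells. Each replicate of these 3 groups was a pool of cells from 3 mice, divided between the conditions, so an n of 3 counts pools. CTL were P14 cells activated for 48 h and grown for 4 further days in 20 ng/ml IL-2. On day 6 they were washed out of IL-2 and held for 24 h either with IL-2 added back or without it, and for them no pooling of mice is stated. All activated groups had therefore seen IL-2, and no group had the inhibitor without the TCR stimulus.

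The deposited values are FPKM, fragments per kilobase of exon scaled to library size, so levels can be set side by side between genes. Fold changes are differences of log2(FPKM + 0.1) from limma, and p-values were adjusted over all mRNA of a table. The call needed both an adjusted p below 0.05 and a fold over 2 or under 0.5. How the CTL table was normalised is not given in the sources used here, so no test was made between CD8+ and CTL groups. The spacing of low FPKM values gave a rough estimate of 9.7 to 14.6 M reads per library, which puts the 10 mRNA between 184 reads (Foxo3 in TCR cells, a counting error of 7.37%) and 8990 reads (Foxo1 in naïve cells, 1.05%). The 6 CD8+ T cell markers summed to 3699 to 4041 FPKM in naïve, 841.7 to 878.9 in TCR and 1020 to 1170 in PI3Kdi libraries. Of the 6, 6 were called lower on activation, where 23.7% of all mRNA were called lower. In CTL the markers summed to 1341 to 1396 FPKM with IL-2 and 2228 to 2463 without. There 3 of the 6 were called higher, beside 14.3% of all mRNA. The B cell markers in the CD8 table (4 of 5) summed to 20.89 to 26.29 FPKM in naïve, 4.63 to 7.12 in TCR and 3.3 to 4.58 in PI3Kdi libraries. The myeloid and dendritic markers in that table (4 of 9) summed to 8.84 to 33.52, 14.1 to 30.2 and 3.7 to 5.28 FPKM in the same order. In the CTL table the B cell marker Cd79b was at 2.74 to 6.3 FPKM with IL-2 and 10.8 to 20.64 without, and 5 of the 9 myeloid and dendritic markers summed to 22.06 to 29.93 and 30.99 to 39.72. Within that sum H2-Ab1 was lower without IL-2 (means of 18.5 and 14.2 FPKM), while Itgam rose from a mean of 0.293 to 4.09 FPKM (log2 fold change 3.44) and Itgax from 0.310 to 4.55 (3.51). With and without IL-2, H2-Aa had means of 0.797 and 0.740 FPKM and Cd74 of 5.95 and 10.7. The CD4 T cell marker Cd4 rose from 0.230 to 1.40 FPKM in CTL without IL-2 (2.29). Whether these marker values come from other cells, and what part such cells have in the results below, was not tested. In bulk libraries fewer cells of a type and less RNA per cell cannot be told apart.

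**Figure D1:**
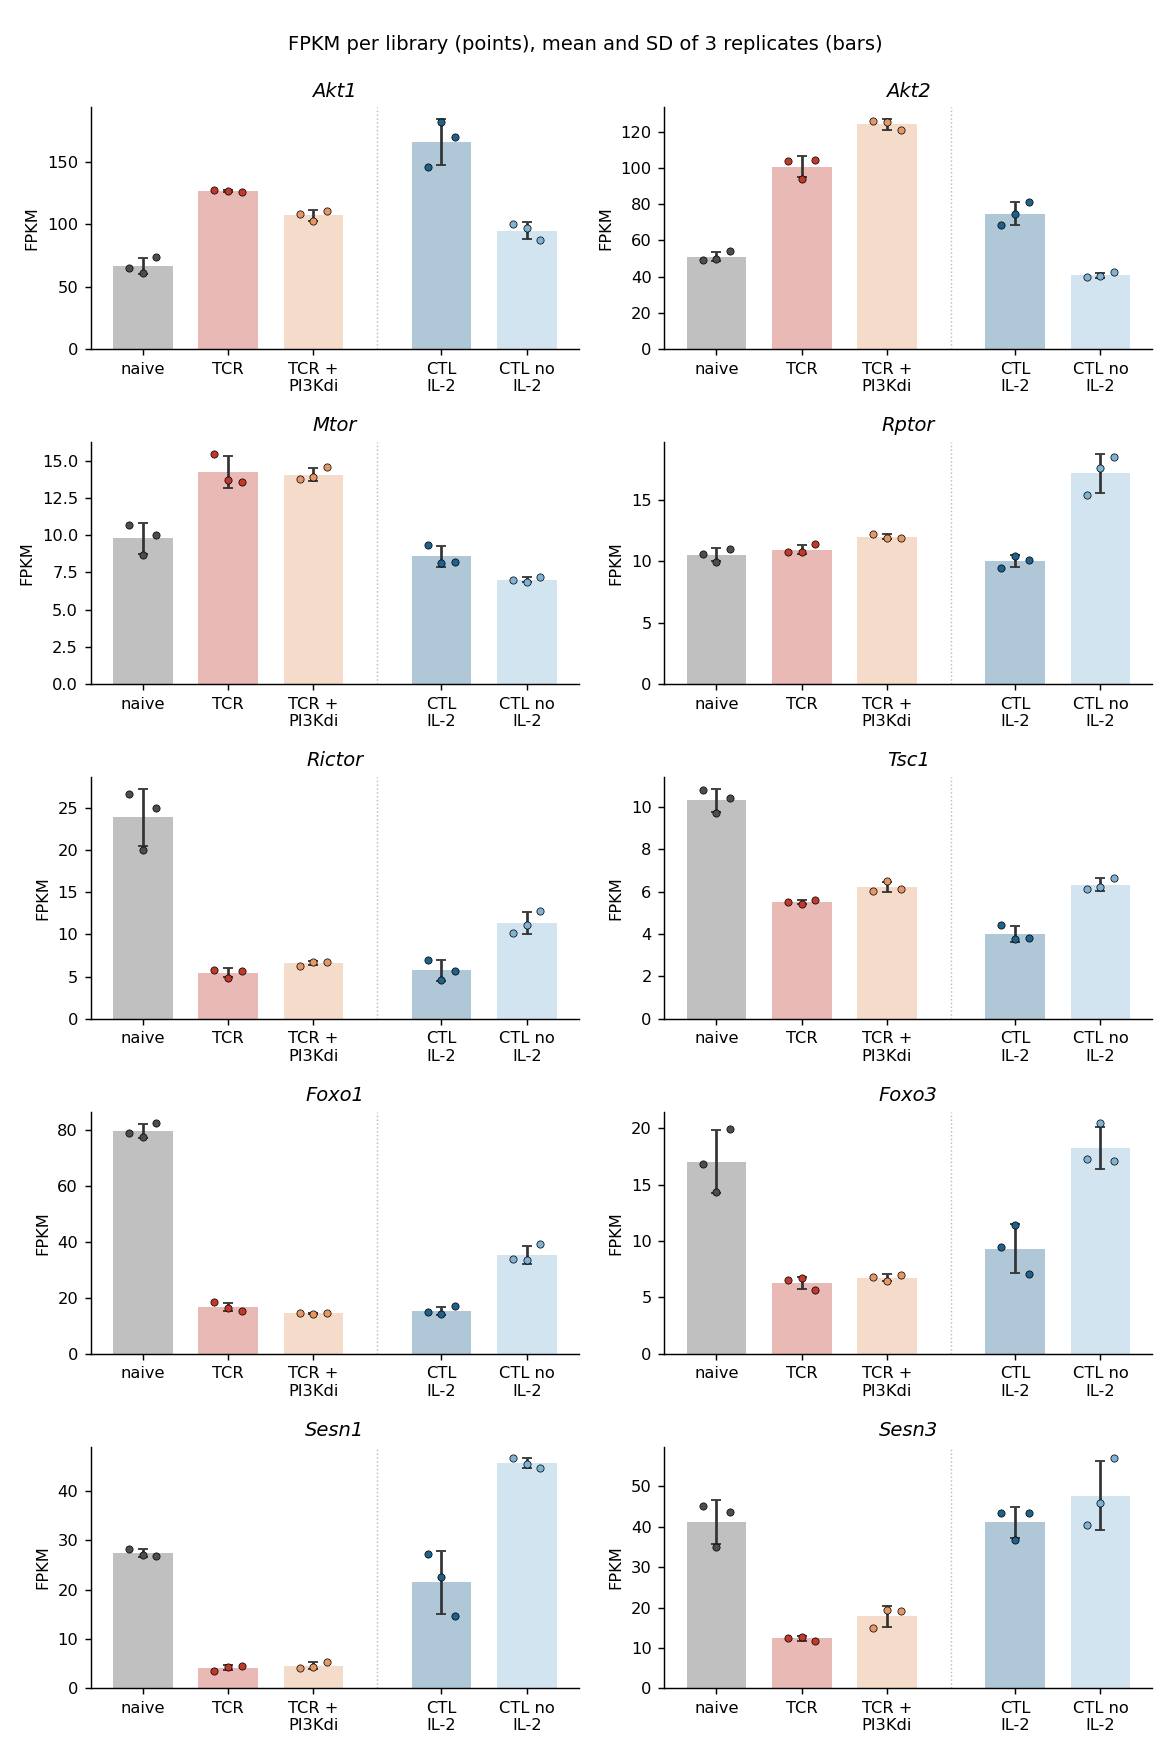
FPKM of each of the 10 mRNA (y axis, linear from 0) in the 5 groups (x axis). Points are libraries, bars are means and error bars SD of 3 replicates, and the dotted line separates the 2 tables. Foxo1 fell from 79.6 to 16.7 FPKM on activation while Akt1 rose from 66.7 to 126, and both moved the other way when CTL lost IL-2.

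AKT kinases. Akt1 and Akt2 were the 2 most abundant of the 10 mRNA in TCR and PI3Kdi cells. Both rose just under 2-fold on TCR activation and both fell when CTL were deprived of IL-2. With PI3Kdi the higher of the 2 became Akt2. AKT1 and AKT2 are closely related serine and threonine kinases that share many substrates, and AKT2 is best known for its part in insulin-driven glucose uptake.

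Akt1 (Entrez 11651) lies on the minus strand at chr12:112653821-112674884 of GRCm38.p6. Its level was 65.2, 61.1 and 73.8 FPKM in naïve replicates 1, 2 and 3, then 127, 126 and 125 in TCR cells and 108, 102 and 111 with PI3Kdi. The 3 groups did not overlap, with TCR cells highest and naïve cells lowest. The log2 fold change was 0.93 (SE 0.08) for TCR against naïve cells (limma adjusted p = 9.28e-07) and -0.24 (95% interval -0.42 to -0.06) for PI3Kdi against TCR alone, which did not pass the test (adjusted p = 0.0684). In CTL Akt1 was at 146, 182 and 169.7 FPKM with IL-2 and 99.98, 97.1 and 87.2 without it. Every library without IL-2 was below every library with it, and the log2 fold change was -0.80 (SE 0.10, adjusted p = 5.97e-05).

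Akt2 (Entrez 11652, plus strand, chr7:27591552-27640826) was at 49.1, 49.9 and 53.9 FPKM in naïve cells, 104, 94.1 and 104 in TCR cells and 126, 126 and 121 with PI3Kdi. Here the PI3Kdi libraries were the highest of the 3 groups. It rose by 0.98 on the log2 scale (SE 0.08, limma adjusted p = 2.59e-07) on activation and a further 0.30 (SE 0.08, adjusted p = 0.0194) with PI3Kdi. That call did not pass without TCR replicate 2, PI3Kdi replicate 1 or PI3Kdi replicate 2 (adjusted p of 0.0742 to 0.0837). In CTL Akt2 was at 68.5, 74.6 and 81.4 FPKM with IL-2 and 39.7, 40.4 and 42.4 without, again with no overlap, and it fell by 0.87 on the log2 scale (SE 0.08, adjusted p = 1.3e-05).

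The opposite signs under PI3Kdi can be seen in the ratio of both kinases within a library, which no scaling of libraries can alter. The Akt1 to Akt2 ratio, like the others below a geometric mean over 3 libraries, was 1.304 in naïve and 1.254 in TCR cells. With PI3Kdi it was 0.8583, 0.8137 and 0.9159, below 1 in 3 of 3 libraries, and the difference from TCR cells was -0.54 on the log2 scale. The 2 groups did not overlap, but an exact two-sided permutation test of 3 against 3 cannot go below the 0.1 it gave (0.145 after Benjamini-Hochberg adjustment over 16 ratio tests). In CTL the ratio was 2.212 with IL-2 and 2.314 without, which overlapped (exact p = 0.8). Pdpk1, the upstream kinase, was at 23.1, 17.4 and 16.6 FPKM in naïve, TCR and PI3Kdi cells, and its fall on activation was small (-0.40, adjusted p = 0.00144).

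mTOR complexes. On activation the shared kinase Mtor rose by less than 2-fold, the mTORC1 subunit Rptor did not pass the test and the mTORC2 subunit Rictor fell more than 4-fold. None of these 3 passed the test with PI3Kdi. In CTL without IL-2, Mtor fell by less than 2-fold and both Rptor and Rictor rose. Raptor recruits mTORC1 substrates such as the S6 kinases, and Rictor directs mTORC2 to AKT and SGK1.

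Mtor (Entrez 56717, chr4:148448582-148557685) was at 10.7, 8.67 and 10.0 FPKM in naïve cells, 15.5, 13.7 and 13.6 in TCR cells and 13.8, 13.9 and 14.6 with PI3Kdi. Naïve libraries were lowest, and the activated groups overlapped. Activation raised it by 0.54 on the log2 scale (SE 0.11, limma adjusted p = 0.000615), and the difference with PI3Kdi was -0.02 (95% interval -0.25 to 0.22, adjusted p = 0.938), where its sign turned to 0.04 without TCR replicate 1. In CTL Mtor was at 9.37, 8.13 and 8.23 FPKM with IL-2 and 6.97, 6.89 and 7.18 without. The groups did not overlap, but the log2 fold change of -0.28 (SE 0.10, adjusted p = 0.033) did not pass without CTL IL-2 replicate 1, no IL-2 replicate 1 or no IL-2 replicate 2 (adjusted p of 0.0812 to 0.102).

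Rptor (Entrez 74370, chr11:119602905-119899591) was the flattest of the 10 in the CD8 groups. Its level was 10.6, 9.98 and 11.04 FPKM in naïve cells, 10.8, 10.7 and 11.4 in TCR cells and 12.2, 11.9 and 11.9 with PI3Kdi. The naïve and TCR libraries overlapped, and the log2 fold change was 0.06 (95% interval -0.14 to 0.26, limma adjusted p = 0.581). All PI3Kdi libraries were above all TCR libraries, but the difference of 0.13 did not pass (adjusted p = 0.358). Withdrawal of IL-2 took Rptor from 9.48, 10.5 and 10.1 FPKM to 15.4, 17.6 and 18.5, a log2 fold change of 0.77 (SE 0.10, adjusted p = 9.98e-05). An antisense gene, Rptoros, shares 84 exon bases with Rptor. The methods of the paper name a stranded mRNA library kit, but whether strand was used in counting is not given in the sources used here.

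Rictor (Entrez 78757, chr15:6708349-6800401) was at 26.6, 20.0 and 25.0 FPKM in naïve cells, 5.84, 4.86 and 5.67 in TCR cells and 6.30, 6.76 and 6.79 with PI3Kdi. The naïve libraries stood far above the rest, and each PI3Kdi library was just above each TCR library. Activation gave a log2 fold change of -2.10 (SE 0.13, limma adjusted p = 3.74e-08) and PI3Kdi one of 0.28 (95% interval -0.005 to 0.56, adjusted p = 0.166). In CTL Rictor rose from 7.02, 4.56 and 5.67 FPKM with IL-2 to 10.2, 11.1 and 12.7 without, a log2 fold change of 0.98 (SE 0.16, adjusted p = 0.000434). The Rptor to Rictor ratio was 0.4469 in naïve cells, 1.995 in TCR cells and 1.804 with PI3Kdi. The more abundant of these mRNA was thus Rictor before and Rptor after activation, with no overlap between naïve and TCR libraries (exact two-sided p = 0.1, the smallest possible). In CTL, where both rose on withdrawal, the ratio was 1.751 with IL-2 and 1.513 without, and the groups overlapped.

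Tsc1 and the RHEB switch. TSC1 stabilises TSC2, the GTPase activator of RHEB, and is known to hold naïve T cells in quiescence. Tsc1 (Entrez 64930, chr2:28640993-28691172) was at 10.8, 9.73 and 10.4 FPKM in naïve cells, 5.50, 5.42 and 5.59 in TCR cells and 6.02, 6.50 and 6.13 with PI3Kdi. The naïve libraries were highest, and each PI3Kdi library was above each TCR library. Tsc1 had a log2 fold change of -0.89 (SE 0.10, limma adjusted p = 8.13e-06) on activation and 0.17 (95% interval -0.05 to 0.40, adjusted p = 0.285) with PI3Kdi. In CTL it rose from 4.44, 3.77 and 3.81 to 6.11, 6.24 and 6.66 FPKM on loss of IL-2 (0.65, SE 0.12, adjusted p = 0.000851). Its partner Tsc2 had mean levels of 15.4, 15.1 and 16.4 FPKM in naïve, TCR and PI3Kdi cells and 10.9 and 11.3 in CTL with and without IL-2. No Tsc2 difference passed the test in the 4 comparisons (adjusted p of 0.381 to 0.805). Rheb passed in CTL, from 35.5 to 20.2 FPKM without IL-2 (-0.81, adjusted p = 4.14e-05), and did not pass between TCR and naïve cells (0.06, adjusted p = 0.648). Mlst8, the subunit common to both mTOR complexes, was between 10.97 and 13.7 FPKM as a mean in all 5 groups and passed no test (adjusted p of 0.0896 to 0.862).

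FOXO factors. Foxo1 was the highest of the 10 mRNA in naïve cells and fell nearly 5-fold on activation. Foxo3 started lower and fell less. PI3Kdi did not restore either, and both rose in CTL without IL-2. FOXO1 sustains Klf2 and Il7r in naïve T cells, and FOXO3 is its broadly expressed paralog with a role in survival.

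Foxo1 (Entrez 56458, chr3:52268337-52350109) was at 79.0, 77.4 and 82.4 FPKM in naïve cells, 18.4, 16.3 and 15.4 in TCR cells and 14.5, 14.2 and 14.6 with PI3Kdi. The inhibitor libraries were the lowest, below each TCR library. Foxo1 had a log2 fold change of -2.25 (SE 0.09, limma adjusted p = 8.99e-10) on activation and -0.20 (95% interval -0.39 to -0.01, adjusted p = 0.129) with PI3Kdi. In CTL Foxo1 was at 14.8, 14.2 and 17.0 FPKM with IL-2 and 33.8, 33.3 and 39.2 without. That is a log2 fold change of 1.20 (SE 0.10, adjusted p = 6.04e-06), with no overlap. An antisense gene, Gm20402, shares 674 exon bases with Foxo1 and is not among the mRNA of the CD8 table. The library kit was stranded, but with the use of strand in counting unstated, reads of Gm20402 cannot be told apart here.

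Foxo3 (Entrez 56484, minus strand, chr10:42181845-42276695) was at 16.8, 14.3 and 19.9 FPKM in naïve cells, 6.51, 6.67 and 5.68 in TCR cells and 6.77, 6.46 and 7.01 with PI3Kdi. The activated groups overlapped, and all their libraries were below the naïve ones. The log2 fold change was -1.41 (SE 0.13, limma adjusted p = 1.35e-06) on activation and 0.10 (95% interval -0.19 to 0.39, adjusted p = 0.64) with PI3Kdi. In CTL Foxo3 was at 9.44, 11.4 and 7.07 FPKM with IL-2 and 17.2, 20.4 and 17.1 without, a rise of 0.98 (SE 0.16, adjusted p = 0.000473), just short of 2-fold. The Foxo1 to Foxo3 ratio was 4.697 in naïve, 2.627 in TCR and 2.124 in PI3Kdi cells, so Foxo1 stayed the more abundant. None of these 3 groups overlapped (exact two-sided p = 0.1 for each pair, the smallest possible). In CTL the ratio was 1.665 with IL-2 and 1.938 without, and overlapped. Foxo4 went from 12.1 to 5.98 FPKM on activation (-1.004, limma adjusted p = 3.41e-06), a call at the edge of 2-fold. Median scaling, a pseudocount of 1 and leaving out naïve replicate 1 or TCR replicate 1 each moved it below 2-fold (-0.98 to -0.91). Foxo4 was the FOXO mRNA that rose with PI3Kdi, to 8.87 FPKM (0.57, adjusted p = 0.00397). In CTL it rose from 5.04 to 10.7 FPKM without IL-2 (1.08, adjusted p = 3.29e-05), and by 0.96 with a pseudocount of 1, under 2-fold.

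Sestrins. Sesn1 had the largest fall of the 10 mRNA on activation, and Sesn3 fell too. Sesn3 rose in part with PI3Kdi and Sesn1 did not pass that test, while in CTL without IL-2 it was Sesn1 that rose. Sestrins are stress-induced proteins that bind GATOR2 and damp mTORC1 signalling.

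Sesn1 (Entrez 140742, plus strand, chr10:41810574-41908436) was at 28.3, 27.0 and 26.8 FPKM in naïve cells, 3.57, 4.41 and 4.49 in TCR cells and 4.07, 4.26 and 5.34 with PI3Kdi. The activated groups overlapped at a level far below the naïve libraries. For Sesn1 the log2 fold change was -2.70 (SE 0.13, limma adjusted p = 7.3e-09) on activation and 0.13 (95% interval -0.17 to 0.42, adjusted p = 0.566) with PI3Kdi. In CTL with IL-2 Sesn1 was at 27.2, 22.5 and 14.7 FPKM, the widest spread of any member in any group (a coefficient of variation of 29.4%). Without IL-2 it was at 46.6, 45.5 and 44.5 FPKM, a log2 fold change of 1.13 (SE 0.19, adjusted p = 0.000437), which was 0.88 without CTL IL-2 replicate 3. Sesn1 and Foxo3 are neighbours on chromosome 10, 273.4 kb apart with 1 protein-coding gene, Armc2, between them.

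Sesn3 (Entrez 75747, chr9:14276301-14326134) was at 45.1, 35.0 and 43.7 FPKM in naïve cells, 12.6, 12.8 and 11.7 in TCR cells and 14.9, 19.5 and 19.2 with PI3Kdi. The 3 groups did not overlap, and PI3Kdi lay between TCR and naïve. The log2 fold change was -1.72 (SE 0.13, limma adjusted p = 2.02e-07) on activation and 0.52 (SE 0.13, adjusted p = 0.0188) with PI3Kdi, a call that did not pass without TCR replicate 3, PI3Kdi replicate 2 or PI3Kdi replicate 3 (adjusted p of 0.0517 to 0.089). In CTL Sesn3 was at 43.4, 36.7 and 43.4 FPKM with IL-2 and 40.4, 45.8 and 57.0 without. These overlapped (0.20, 95% interval -0.08 to 0.49, adjusted p = 0.178). The Sesn1 to Sesn3 ratio was 0.6676 in naïve, 0.3401 in TCR and 0.2593 in PI3Kdi cells, and it was 0.5082 with and 0.9636 without IL-2 in CTL. The groups did not overlap in any of these comparisons (exact two-sided p = 0.1, the smallest possible). Sesn2, the third sestrin, went the other way on activation, from 2.16 to 7.99 FPKM (1.72, adjusted p = 0.000335), with TCR replicate 1 at 13.02 FPKM and the others at 5.71 and 5.24. It fell to 3.08 FPKM with PI3Kdi (-1.25, adjusted p = 0.019), a difference of -0.84 without TCR replicate 1 that did not pass without PI3Kdi replicate 2 (adjusted p = 0.0643) or replicate 3 (adjusted p = 0.0702), nor with only TCR and PI3Kdi libraries in the limma fit (adjusted p = 0.0544). In CTL without IL-2 Sesn2 fell from 25.9 to 9.80 FPKM (-1.41, adjusted p = 1.62e-05).

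**Figure D2:**
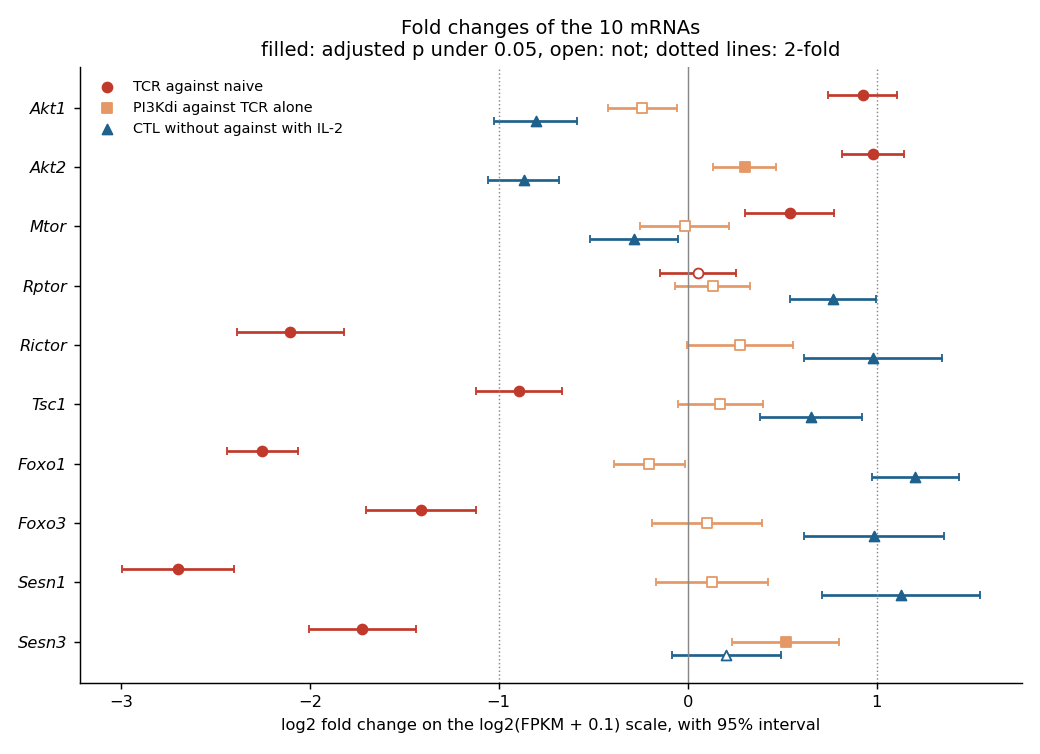
Log2 fold change (x axis, log2(FPKM + 0.1) scale) with its 95% interval for each of the 10 mRNA (y axis) in 3 comparisons of 3 against 3 libraries. Filled symbols passed an adjusted p of 0.05 in limma and dotted lines mark 2-fold. Activation (circles) spans -2.70 to 0.98, PI3Kdi (squares) stays between -0.24 and 0.52, and IL-2 withdrawal (triangles) spans -0.87 to 1.20.

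Set against all mRNA, 5 of the 10 were called lower on activation and 0 higher, where 23.7% of all mRNA were called lower, 25% higher and 48.7% in either direction. The 5 were Rictor, Foxo1, Foxo3, Sesn1 and Sesn3. On adjusted p alone 3 were higher (Akt1, Akt2, Mtor) and 6 lower, where 40.9% of all mRNA were higher, 39.8% lower and 80.8% either. The naïve and TCR libraries did not overlap for 9 of the 10, against 80.7% of all mRNA. The median log2 fold change was -1.15 over the 10 and 0.01 over all mRNA. Leaving out naïve replicate 3 raised the count called from 5 to 7, since Akt1 and Akt2 then passed 2-fold.

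With PI3Kdi, 0 of the 10 were called changed against TCR alone, where 3.04% of all mRNA were higher and 2.1% lower, 5.14% together. At an unadjusted limma p under 0.05 there were 4 of the 10, beside 3544 of all 11262 mRNA. The 4 were Akt1, Akt2, Foxo1 and Sesn3, all under 2-fold. On adjusted p alone 2 were higher, Akt2 and Sesn3, and 0 lower, beside 9.35% of all mRNA higher, 8.19% lower and 17.5% together. That count was 1 without TCR replicate 2, TCR replicate 3, PI3Kdi replicate 1 or PI3Kdi replicate 3, and 0 without PI3Kdi replicate 2. The TCR and PI3Kdi libraries did not overlap for 7 of the 10, against 36.7% of all mRNA, and the median was 0.13 against -0.01. Against naïve cells, which both comparisons of activation share, PI3Kdi cells had 1 member higher (Akt2, log2 fold change 1.28) and 5 lower, where 23.6% of all mRNA were called higher, 21.3% lower and 45% together. On adjusted p alone 3 were higher and 6 lower, where 40.1% of all mRNA were higher, 39% lower and 79.1% together. The groups did not overlap for 10 of the 10, against 82.9% of all mRNA. The changes from naïve cells, given first for TCR and then for PI3Kdi, were -2.10 and -1.83 for Rictor, -2.25 and -2.45 for Foxo1, -1.41 and -1.31 for Foxo3, -2.70 and -2.57 for Sesn1, and -1.72 and -1.21 for Sesn3.

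In CTL without IL-2, 2 of the 10 were called higher, Foxo1 and Sesn1, and 0 lower, where 14.3% of all mRNA were called higher, 13.9% lower and 28.2% together. Rictor and Foxo3 were at 0.98, so the count was 4 without CTL IL-2 replicate 1 or no IL-2 replicate 1, and it was 1 without CTL IL-2 replicate 3. On adjusted p alone 6 were higher and 3 lower (Akt1, Akt2, Mtor), beside 35.2% of all mRNA higher, 36.6% lower and 71.9% together. The groups did not overlap for 9 of the 10, against 76.1% of all mRNA. The median was 0.71 over the 10 and -0.0009 over all mRNA.

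**Figure D3:**
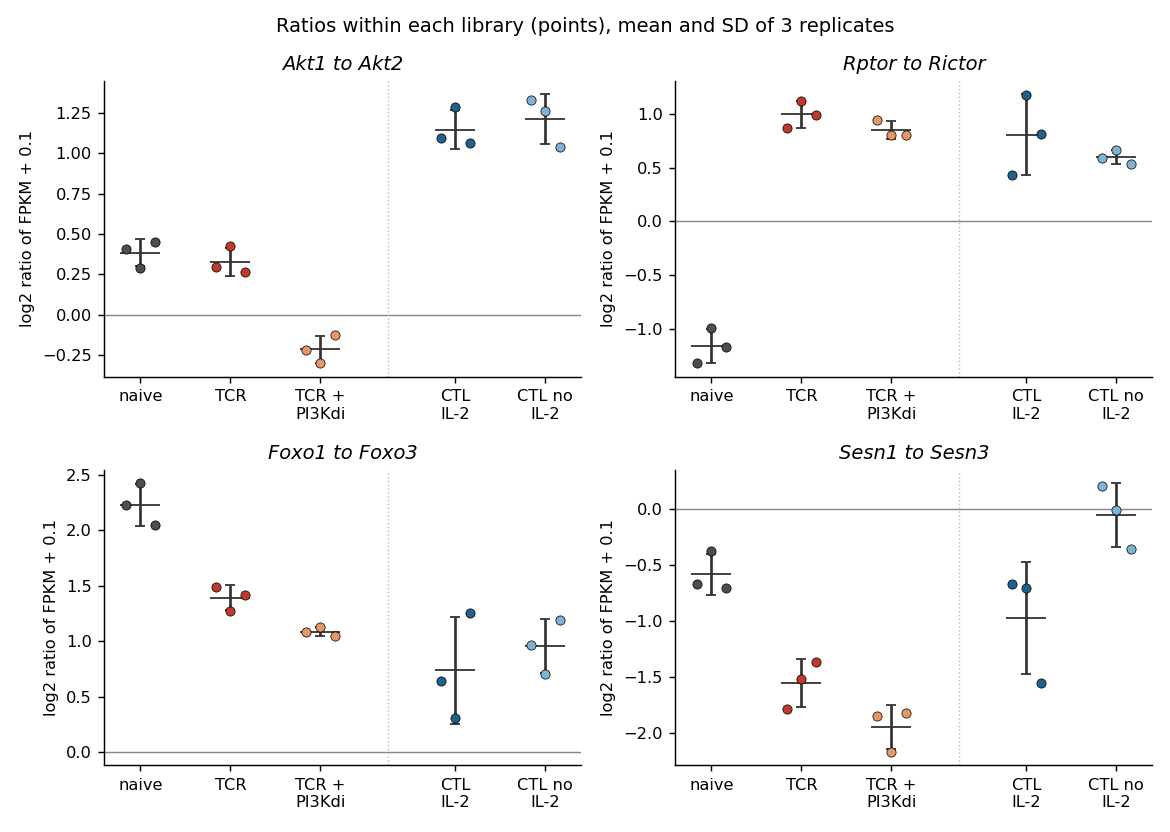
Log2 ratio of FPKM + 0.1 within each library (y axis) for 4 pairs of related mRNA in the 5 groups (x axis). Points are libraries, and horizontal lines and error bars are means and SD of 3 replicates. The Akt1 to Akt2 ratio is below 0 in all PI3Kdi libraries and above 0 in the others, and the Rptor to Rictor ratio is below 0 in all naïve libraries and above 0 in the others.

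The rest of the pathway was read from lists of its other genes. Of 12 known FOXO target genes, 8 were called lower and 1, Gabarapl1, higher on activation, where 23.7% of all mRNA were called lower and 25% higher. The largest falls were in Klf2, a transcription factor of T cell homing (from 226 to 0.743 FPKM, log2 fold change -8.29), Pik3ip1, an inhibitor of PI3K (61.7 to 0.820, -6.07), and S1pr1, the receptor for egress from lymph nodes (237 to 3.79, -5.99). With PI3Kdi 4 of the 12 were called higher and 0 lower (3.04% and 2.1% of all mRNA). On adjusted p alone 7 were higher and 0 lower (9.35% and 8.19% of all mRNA). The number past adjusted p alone was 5 or 6 when any 1 library was left out. Klf2 rose from 0.39, 0.38 and 1.46 FPKM in TCR libraries to 9.33, 14.3 and 19.5 (4.28, SE 0.40, limma adjusted p = 5.89e-05). Among the others were Pik3ip1 (0.820 to 4.02, 2.03) and the survival cytokine receptor Il7r (9.38 to 30.8, 1.74). The levels that Klf2, Pik3ip1 and Il7r reached with PI3Kdi were below those of naïve cells. S1pr1 was at 3.96 FPKM, a difference of 0.01 from TCR cells (adjusted p = 0.981). In CTL without IL-2, 11 of the 12 were called higher and 0 lower (14.3% and 13.9% of all mRNA). The 5 largest were Pik3ip1 (5.70 to 97.6 FPKM, 4.11), S1pr1 (8.11 to 122, 3.98), Klf2 (2.43 to 35.4, 3.76), the ubiquitin ligase subunit Fbxo32 (0.387 to 6.46, 3.75) and Il7r (46.2 to 411, 3.23). The median over the 12 was -3.26 on activation, 0.48 with PI3Kdi and 2.78 on IL-2 withdrawal.

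In the lysosomal arm, which carries the amino acid signal to mTORC1, PI3Kdi moved single genes, beside 5.14% of all mRNA called. Of 10 measured RAG, Ragulator and folliculin genes 1 was called higher, Rragd, which encodes a RAG GTPase: it was at 0.49, 0.65 and 0.44 FPKM in TCR libraries and 3.52, 4.74 and 4.92 with PI3Kdi (2.84, SE 0.22, limma adjusted p = 1.48e-05). The naïve libraries were at 0.82, 0.53 and 0.61 FPKM, so the PI3Kdi level was above both. Of 12 measured GATOR genes and amino acid sensors 1 was called lower, Sesn2. Of 13 measured substrates of mTORC1 and mTORC2 1 was called lower, the translation repressor Eif4ebp1 (61.2 to 25.4 FPKM, -1.15), named after its value was seen. TCR replicate 1 was at 100.5 FPKM and the other TCR libraries at 44.6 and 38.5, and without it the difference was -0.72. The Eif4ebp1 call was also lost without PI3Kdi replicate 2 (adjusted p = 0.0795) or replicate 3 (adjusted p = 0.0727), and with only TCR and PI3Kdi libraries in the limma fit (adjusted p = 0.0595). With PI3Kdi none of 6 AKT inputs and phosphatases passed an adjusted p of 0.05 in limma. Nor did any of 9 other mTOR complex subunits or 4 TSC complex or RHEB genes. In the same order 2, 1 and 1 genes had an unadjusted limma p under 0.05, beside 3544 of all 11262 mRNA.

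On activation, where 48.7% of all mRNA were called, the lists described next had 2 of 9, 7 of 13, 3 of 10, 4 of 12 and 1 of 4 measured genes called in either direction. Of the 9 other mTOR complex subunits 2 were called higher, the mTORC2 subunits Prr5 (0.0433 to 2.45 FPKM, 4.18) and Prr5l (0.0133 to 0.287, 1.75), both from levels near 0 where the fold depends on the pseudocount. Of the substrates 2 were called higher and 5 lower, led by Sgk1, a kinase under mTORC2 (27.8 to 0.587 FPKM, -5.35), Eif4ebp1 (4.64 to 61.2, 3.57) and Lpin1, a phosphatidate phosphatase (12.9 to 2.07, -2.68). Fnip2, a folliculin partner, rose from 0.107 to 2.57 FPKM (3.71), and the lysosomal arginine sensor Slc38a9 (3.30 to 0.963, -1.68) and the Ragulator subunit Lamtor2 (66.8 to 28.9, -1.20) fell. Among the GATOR genes 2 were called higher and 2 lower, among them Sesn2 and Seh1l (18.1 to 44.8, 1.30), both higher. The TSC complex subunit Tbc1d7 rose from 3.37 to 8.55 FPKM (1.35).

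In CTL without IL-2, where 28.2% of all mRNA were called, calls in the rest of the pathway went both ways. Of 10 RAG, Ragulator and folliculin genes 3 were called higher and 1 lower, and of 14 mTORC1 and mTORC2 substrates 2 were higher and 2 lower. The 12 measured GATOR genes and sensors had 2 called lower, Sesn2 among them, and the 9 other mTOR complex subunits 1 lower. None of the 4 TSC complex or RHEB genes was called at 2-fold, and 1 of them, Rheb, passed on adjusted p alone.

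**Figure D4:**
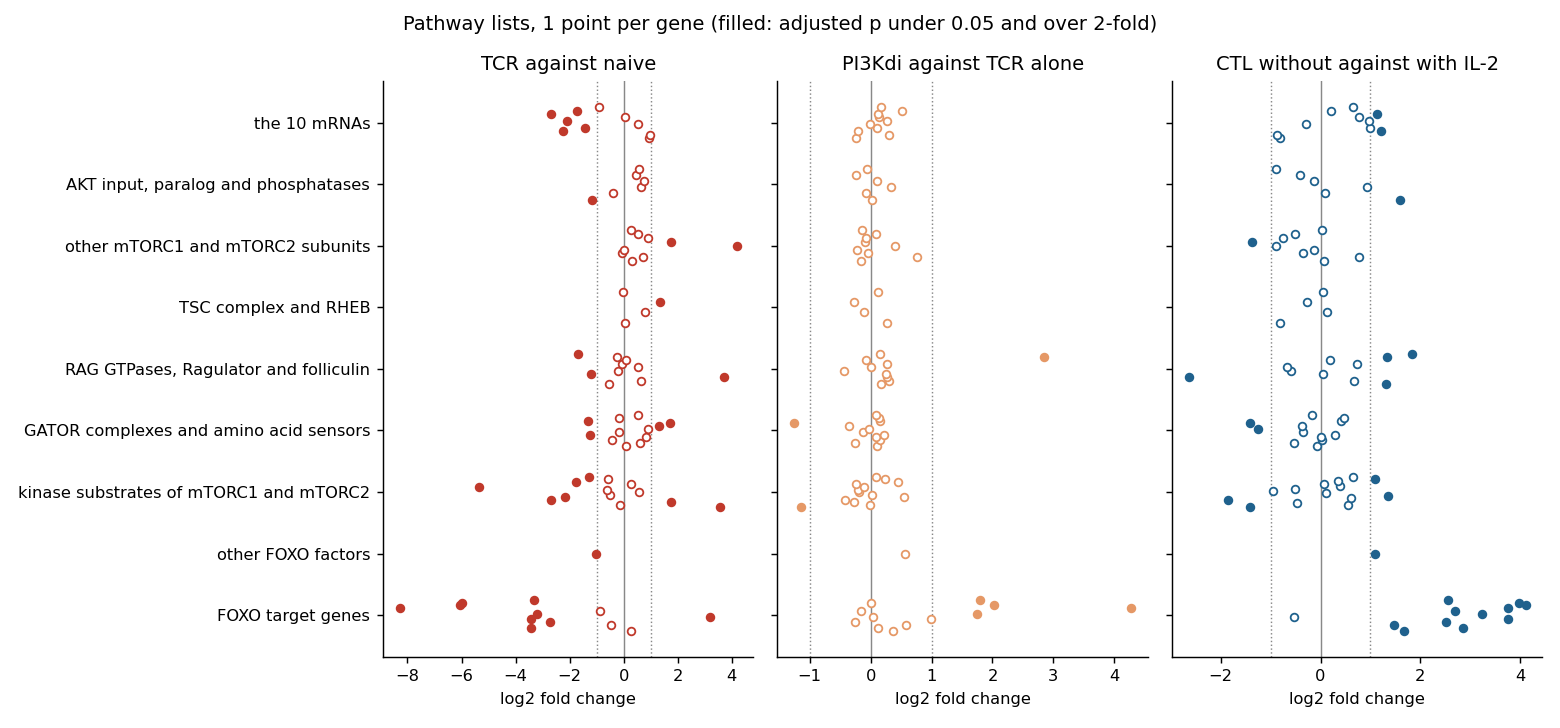
Log2 fold change (x axis) of every measured gene of the 10 mRNA and of 8 other pathway lists (y axis), 1 point per gene, in 3 comparisons of 3 against 3 libraries. Filled points passed an adjusted p of 0.05 in limma and 2-fold, and each panel has its own x scale. Among the FOXO target genes 8 of 12 were called lower on activation, 4 of 12 higher with PI3Kdi and 11 of 12 higher in CTL without IL-2.

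Promoter sequence was set beside these changes because several members are described as FOXO targets. RefSeq windows from 250 bases before to 50 after a transcription start were found for all 10 members, 15 windows in all. The FOXO core GTAAACA, on either strand, was in 2 of the 15, the first starts of Akt1 and Sesn1, and in 3.65% of all 32851 windows. The E-box CACGTG, which reads alike on both strands, was in 0 of the 15 and in 7.15% of all. Both windows with the FOXO core are shown from 250 bases before to 30 after the start in GRCm38.p6, with the match in capitals. For Akt1, minus strand at chr12:112674855-112675134, it begins 161 bases before the start. For Sesn1, plus strand at chr10:41810324-41810603, it begins 22 bases after it.
Akt1: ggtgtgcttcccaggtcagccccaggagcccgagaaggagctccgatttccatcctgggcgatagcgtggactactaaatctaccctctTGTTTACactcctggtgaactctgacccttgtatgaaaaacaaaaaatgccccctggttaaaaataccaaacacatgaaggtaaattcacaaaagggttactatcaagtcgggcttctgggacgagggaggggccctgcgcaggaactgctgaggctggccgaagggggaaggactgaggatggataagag
Sesn1: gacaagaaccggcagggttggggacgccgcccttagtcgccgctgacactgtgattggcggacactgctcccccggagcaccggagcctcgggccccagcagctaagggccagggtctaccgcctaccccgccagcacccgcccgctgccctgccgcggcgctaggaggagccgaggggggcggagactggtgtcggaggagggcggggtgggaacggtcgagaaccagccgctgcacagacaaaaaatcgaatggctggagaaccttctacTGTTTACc
Akt1 rose and Sesn1 fell on activation, and they moved in opposite directions again on IL-2 withdrawal. A match of 7 letters is a description of the window, and no binding was measured.

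The mRNA most alike the members over the 9 CD8 libraries, among 10072 with a mean of at least 1 FPKM, were taken by Pearson r of log2(FPKM + 0.1), which is given as a description with no p. They were Coro1c for Akt1 (r = 0.9986), Alpk2 for Akt2 (0.9957), Pdp2 for Mtor (0.9868), Hipk2 for Rptor (0.9422) and Abhd2 for Rictor (0.9977). For the others they were Tnfrsf14 for Tsc1 (0.9986), Irf9 for Foxo1 (0.9982), Slc16a5 for Sesn1 (0.9991) and Fchsd1 for Sesn3 (0.9952). The 9 libraries form 3 groups, so a high r mostly follows the group means, and Rptor, with the least difference between groups, had the lowest.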

How the data were processed

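RNA sequencing of 15 libraries was taken from the 2 tables of FPKM that the authors deposited. Their methods and processing notes name alignment to mm10 by STAR 2.5.2b, gene counts by Subread 1.5.1, a filter on low counts, TMM scaling by the authors in edgeR, and division by exon length with overlaps merged. These steps are described for the CD8 table, and for the CTL table they are not given in the sources used here. The deposited values have 2 decimals, blank cells in the CD8 table were read as 0, and none of the 10 mRNA had one. Counts were not used here, so the voom step of the methods was replaced by limma 3.58.1 in R 4.3.3 on log2(FPKM + 0.1), with an intensity trend. One fit took the 9 CD8 libraries and a separate fit the 6 CTL libraries, with Benjamini-Hochberg adjustment across every mRNA of a table. Low values were not filtered further. Fits were tested on simulated data with planted changes over 2-fold, so recovery of smaller changes was not tested. Ratios were compared by exact permutation. Other steps ran in Python 3.11.15 (scipy 1.17.1, numpy 2.4.6, pandas 2.3.3, matplotlib 3.10.9).

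Samples were grouped by title. In the CTL IL-2 group, replicates 2 and 3 carry a treatment label with another interleukin, and the treatment labels of all 6 CTL samples carry the tag of biological replicate 1, while titles and replicate labels number them 1 to 3. CTL replicates are not stated to come from separate animals, so p-values there measure the spread between these samples, which may be technical. Read totals per library are not given in the sources used here. The depth estimate rests on gene exon lengths of the GENCODE annotation and is approximate, and its intervals cover counting error only.

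The members and gene lists were chosen with earlier results of these data known. Named genes were all 10 members, genes of the other lists past adjusted p and 2-fold (the 5 largest with PI3Kdi and on IL-2 withdrawal, up to 3 per list on activation), and Tsc2, Mlst8, Rheb, Pdpk1, Foxo4 and Sesn2. Some genes that this rule would name are not reported here. Alternatives were a pseudocount of 1 or 0.01, median scaling, a filter at a mean of 1 FPKM, a replicate block, no trend, only the groups compared, and each library left out. For the named genes of the other lists they were added after the values were seen.

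Pools were divided between the CD8 conditions, but whether equal replicate numbers mark the same pool is not stated. Deviations from group means over 10072 mRNA correlated between same-numbered TCR and PI3Kdi libraries (r = 0.275, 0.203 and 0.506), and in CTL over 10263 mRNA (0.123, 0.166 and 0.257), which met the criterion for pairing (every r over 0.1). Differently numbered libraries had r of -0.453 to 0.191 between TCR and PI3Kdi and of -0.201 to 0.091 in CTL, so the highest of these came close to the lowest same-numbered values. The reported values come from the fit without the block, and the block was an alternative. Naïve libraries did not correlate so with TCR (-0.141, 0.226 and -0.181) or PI3Kdi libraries (-0.015, -0.017 and 0.03). A differently numbered pair, naïve replicate 3 and TCR replicate 1, had an r of 0.378.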

Additional observations from a re-analysis of the deposited data

How the results depend on the processing

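Of 510 refits of the 10 members' fold changes, 498 kept direction and side of the adjusted p threshold. With the replicate block as a term for the pairing, the counts past adjusted p and 2-fold were 5, 0, 6 and 2 for TCR against naïve, PI3Kdi against TCR, PI3Kdi against naïve and CTL without against with IL-2, and 9, 2, 9 and 9 on adjusted p alone, the same as without it, and it changed no member's call. With 1 library left out, the count past adjusted p alone with PI3Kdi ranged from 0 to 2, and the count at 2-fold in CTL from 1 to 4. The log2 fold change of Mtor with PI3Kdi ranged from -0.051 to 0.045 and so changed sign. That of S1pr1 ranged from -0.32 to 0.38. Akt1 passed with PI3Kdi when only the 2 groups compared were fitted (adjusted p = 0.0431). All 128 refits of the ratios kept direction. Over all mRNA, a pseudocount of 1 lowered the count called with PI3Kdi from 579 to 311, and leaving out PI3Kdi replicate 2 lowered the count past adjusted p from 1975 to 1027. Median scaling moved the median of all mRNA by at most 0.02. The cause of these differences was not tested. At the estimated depth counting error is largest for Foxo3 in TCR cells (7.37%).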
